A study of Mus musculus with 4 samples.

Results

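DEAD and DEAH box helicases are ATP-driven proteins that open RNA duplexes or strip proteins from RNA. Different family members act at each step of an RNA's life, from splicing and ribosome assembly to nuclear export, translation and decay. Germ cells depend on several relatives of the family, among them helicases of the piRNA pathway, which silences transposons in the testis. The measurements below concern the RNAs of these helicase genes and the RNAs found next to them in the cell, not the helicase proteins or their activity.

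The helicase RNAs were chosen by name: every RNA called Ddx or Dhx followed by a digit, except Ddx4, Ddx5 and Ddx17. The rule found 47 of the 13318 RNAs listed, 32 named Ddx and 15 named Dhx. Of these, 45 matched a gene symbol of the reference gene table (GRCm38.p6) and 2 a synonym. Ddx39 matched Ddx39a, and Ddx26b matched Ints6l, an Integrator-related gene whose current symbol is not that of a helicase. The chosen RNAs took part in 216 of the 56636 listed pairs of RNAs. In 14 of these, both ends of the read came from 1 helicase RNA (within-RNA pairs), and in 202 the helicase RNA was joined to another RNA (between-RNA pairs).

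The contacts came from RIC-seq of spermatogonial stem cells of the mouse, the self-renewing testis cells from which sperm descend. In RIC-seq, RNAs that lie close together in fixed cells are cut and joined end to end, and the joined (chimeric) reads are counted for each pair of RNAs. The samples were 2 wild-type control libraries (labelled ctrl1 and ctrl2) and 2 libraries labelled treat1 and treat2, called differentiation here. The sources used here gave neither the agent and the duration of differentiation nor the strain, age and culture conditions. Nothing in the labels tied a library to a culture of its own, so the p-values below reflect the spread between libraries, which may be technical.

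The controls held 1209031 and 1400011 chimeric counts and the differentiation libraries 793129 and 1155923. Every listed pair had at least 1 count in all 4 libraries, so a contact lost in 1 group would not appear in the values below. Of 12 markers of undifferentiated spermatogonia, 8 were listed, while Id4, Lin28a, Bcl6b and Lhx1 were not. Of the 6 tested, 3 fell with differentiation, and the summed level of the 6 went from 941 and 1105 counts scaled to library size (CPM) in the controls to 348 and 335 CPM. All 5 tested markers of meiotic prophase rose by edgeR, and DESeq2 called 4 higher. Their summed level went from 115 and 106 CPM to 474 and 576 CPM (Syce1, Spo11 and Meiob were not listed). Of all RNAs tested, edgeR called 5.44% higher and 6.75% lower. Of 4 tested markers of differentiating spermatogonia none was called by edgeR, and 0 by DESeq2 after adjustment. At an unadjusted p under 0.05 edgeR gave 2, Sohlh2 higher (log2 change 1.08) and Ccnd2 lower (-0.83). The summed level of the 4 was 93.2 and 122 CPM against 104 and 97.7 CPM (Dmrtb1 and Rhox13 were not listed). Markers of other testis or feeder cells were present as well. Sertoli cell markers summed to 1095 and 1268 CPM in the controls and to 682 and 664 CPM with differentiation. Of 6 tested, 5 fell by edgeR and 4 by DESeq2 (Amh and Rhox5 were not listed). Fibroblast markers summed to 1369 and 1282 CPM against 823 and 956 CPM, and 4 of 6 tested fell (Postn, Dcn and Lum were not listed). Leydig and peritubular markers summed to 194 and 205 CPM against 201 and 202 CPM. None of the 3 tested was called (Cyp17a1, Hsd3b1 and Insl3 were not listed). The 1 tested immune marker, Itgam, had 8 and 20 counts in the controls and 56 and 4 with differentiation, and was not called. Fewer cells of a type and less RNA per cell cannot be told apart in such bulk libraries, and the part of these cells in the helicase values was not tested.

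Helicase RNAs held a small share of each library, somewhat higher in both differentiation libraries than in both controls. They carried 2971 and 3438 counts in the controls, which is 0.246% of the counts in each, and 2055 and 3262 counts with differentiation, which is 0.259% and 0.282%. The 95% Wilson interval ran from 0.237% to 0.255% in control 1 and from 0.238% to 0.254% in control 2. In differentiation 1 it ran from 0.248% to 0.271%, which overlaps both controls. In differentiation 2 it ran from 0.273% to 0.292%, above both. These intervals, like all those below, cover counting error only. The median helicase RNA had 3 listed pairs, the same as the median of all RNAs, and 14 of the 47 had fewer than 50 counts over all libraries. The 8 largest held 63.4% of the helicase counts.

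The contact total of an RNA, the sum of the counts of all its pairs, was compared between groups with the quasi-likelihood test of edgeR at an adjusted p under 0.05. Of the 47 helicase RNAs, 44 had enough counts to be tested. Ddx20 (1 and 3 counts in the controls, 1 and 2 with differentiation), Ddx43 (2 and 15, then 2 and 3) and Dhx34 (4 and 2, then 1 and 3) were not. Among the 44, 1 total fell (Ddx39b) and none rose, while 12.2% of all 10993 RNAs tested were called. Over all RNAs 5.44% were called higher and 6.75% lower. At an unadjusted p under 0.05, edgeR gave 5 helicase totals higher and 2 lower, and DESeq2 after adjustment gave 0 higher and 1 lower. The median log2 change of the tested helicase totals was -0.05, against -0.00071 over all RNAs, with single values from -0.89 to 0.77. A value that missed the threshold is not shown to be unchanged by it. In CPM, 10 helicase totals were higher in both differentiation libraries than in both controls, 8 were lower in both, and 26 overlapped. Over all RNAs, 55.2% did not overlap, 26.1% higher and 29.1% lower.

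**Figure D1:**
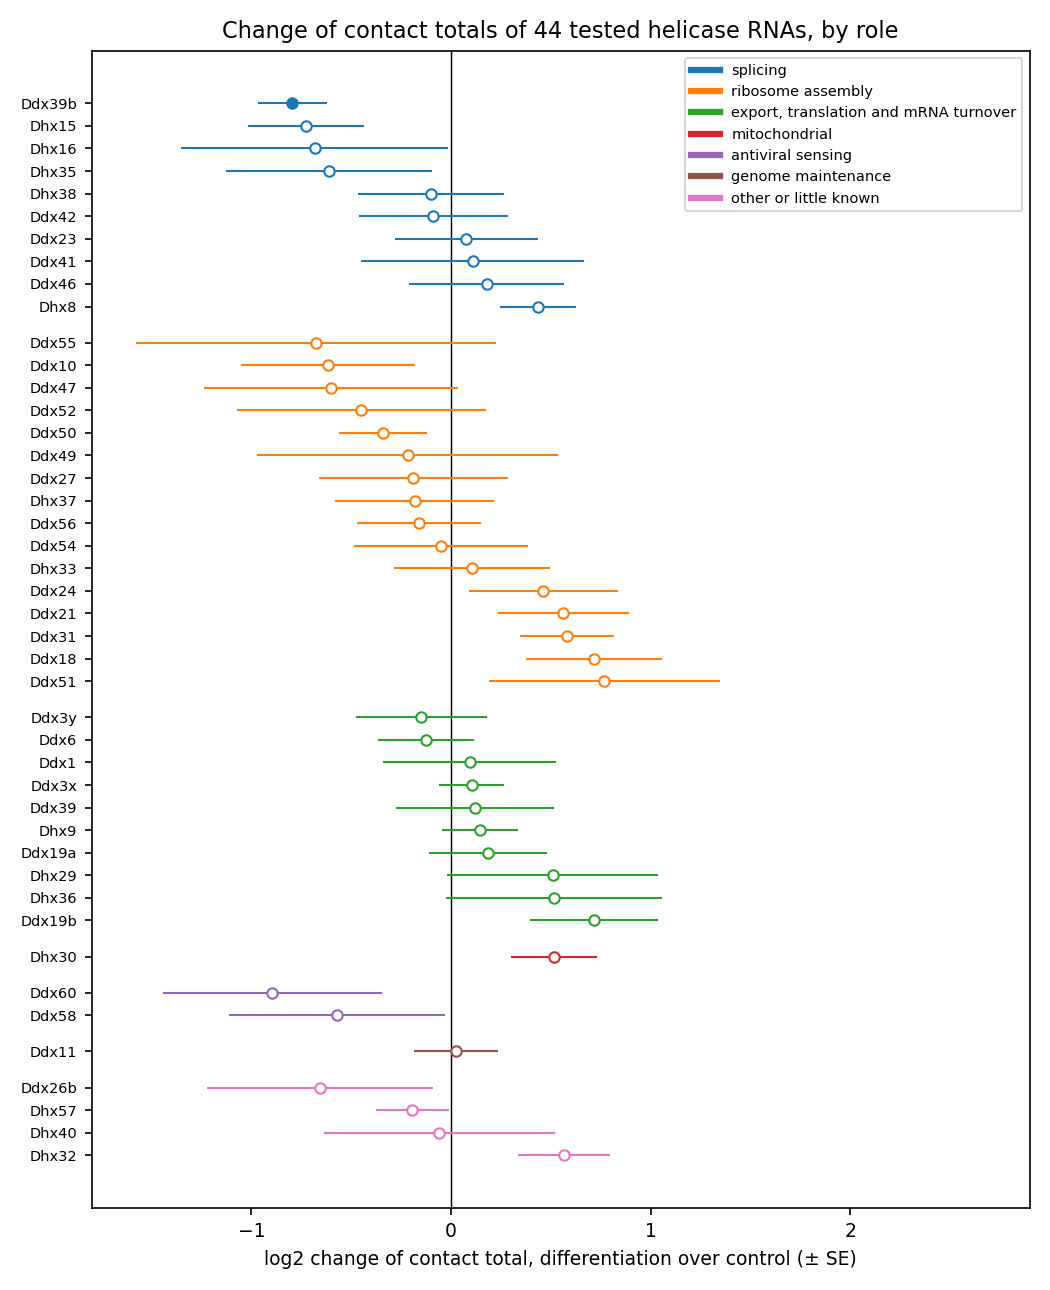
Log2 change of the contact total (differentiation over control, points, with the standard error of the edgeR fit as bars) for the 44 tested helicase RNAs, coloured and grouped by the role of the protein. Ddx39b, the filled point at -0.80, was the 1 total that passed the adjusted threshold, and the open points did not pass it.

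Of the 10 helicases of splicing, 1 total fell and none rose, against 6.75% of all RNAs called lower and 5.44% higher. The median log2 change of the 10 was -0.09. Ddx39b (also known as UAP56) helps to assemble the spliceosome and to hand mRNA to the export machinery. Its gene lies at chr17:35241746-35253707. Its contact total was 412 and 456 counts in the controls and 147 and 275 with differentiation, or 238 and 230 CPM against 120 and 148 CPM. Both differentiation libraries lay well below both controls. The mean went from 234 ± 6.14 CPM (SD, n = 2) to 134 ± 20.2 CPM (n = 2), which is 1.74-fold lower (log2 change -0.80, SE 0.17, adjusted p = 0.0122, edgeR). The call was lost when libraries were scaled by their column totals alone (-0.63, adjusted p = 0.0590). Leaving out either control also ended it (adjusted p = 0.273 and 0.365), but then none of all RNAs passed edgeR, at 1742 and 1358 with an unadjusted p under 0.05.

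The other splicing helicases gave no call. Dhx15, which takes spent spliceosomes apart, had 64 and 65 counts in the controls and 25 and 40 with differentiation. Its 2 differentiation libraries were the lower ones, but the change did not pass the adjusted threshold (-0.73, SE 0.29, adjusted p = 0.137, edgeR). Dhx8, which releases the spliced mRNA, had 124 and 143 counts against 126 and 171, or 71.7 and 72.0 CPM against 103 and 92.3 CPM. Its differentiation libraries were the higher ones, again without passing (0.44, SE 0.19, adjusted p = 0.164, edgeR). In the other 7, the CPM of the groups overlapped.

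**Figure D2:**
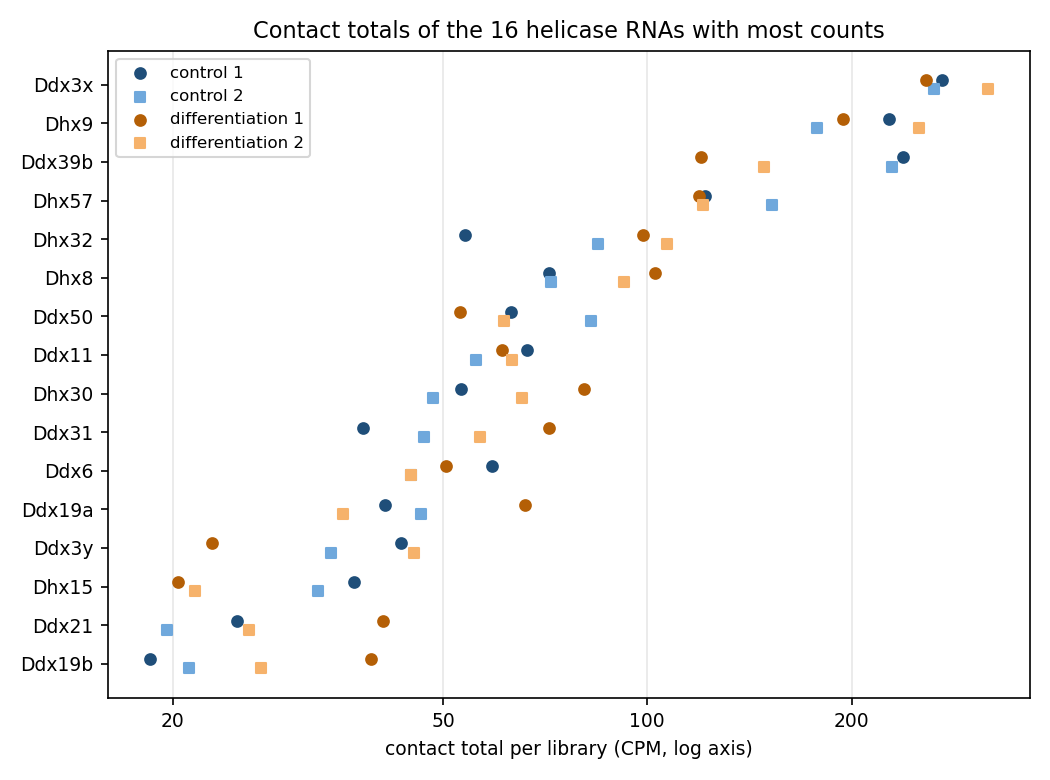
Contact total in CPM (log axis) of the 16 helicase RNAs with most counts, 1 point per library, controls in blue and differentiation in orange. Ddx39b has both differentiation libraries (120 and 148 CPM) below both controls (238 and 230 CPM), while Ddx3x and Dhx9 overlap.

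Ddx39b had more listed pairs than any other helicase RNA. It had 38, and no other helicase RNA reached 10. None of the 38 was a within-RNA pair, and most helicase RNAs likewise had no such pair, since 14 of the 47 had one. It held 23.8% of all between-RNA counts of the helicase RNAs. Among all RNAs, 172 had at least as many between-RNA pairs, and 76 of these had no within-RNA pair. Of its 38 pairs, 17 had enough counts to be tested and 22 had fewer than 20 counts.

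2 between-RNA pairs of helicase RNAs passed the edgeR test, both of Ddx39b and both lower with differentiation. They were its contacts with Neat1 and Malat1, the nuclear long noncoding RNAs of paraspeckles and of nuclear speckles. In all, 109 between-RNA pairs of helicase RNAs were tested, and 3.55% of all between-RNA pairs were called, 1.30% higher and 2.25% lower. None of the helicase pairs was called higher by edgeR or by DESeq2, and edgeR gave 7 higher and 4 lower at an unadjusted p under 0.05. The median log2 change was 0.13, against -0.05 over all between-RNA pairs tested. Totals and pairs were scaled separately, so a change of a total and a change of a pair are not on 1 scale.

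The Ddx39b-Neat1 pair had 44 and 50 counts in the controls and 2 and 9 with differentiation. Few contacts were left in either differentiation library. The level went from 36.5 ± 0.859 CPM to a mean of 5.73 ± 4.09 CPM (log2 change -2.55, SE 0.52, adjusted p = 0.00828, edgeR). The Ddx39b-Malat1 pair had 46 and 62 counts in the controls against 7 and 12, also without overlap. It went from 41.6 ± 4.04 to 10.7 ± 1.09 CPM (-1.93, SE 0.44, adjusted p = 0.0144, edgeR). Without control 2 both calls were lost (adjusted p = 0.550 each), and no pair of any RNA then passed edgeR, although 2931 had an unadjusted p under 0.05.

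Pairs of Neat1 fell across the whole table, so these falls have to be read against it. Of 801 tested pairs of Neat1, 268 (33.5%) were called lower and none higher, with a median log2 change of -1.99. The contact total of Neat1 itself fell by 2.34 on the log2 scale (adjusted p = 3.07e-05, edgeR). Of 1487 tested pairs of Malat1, 90 (6.05%) were called lower and none higher, with a median of -0.87, and the total of Malat1 fell by 1.09 (adjusted p = 0.00106, edgeR). At an unadjusted p under 0.05, a further pair of a helicase RNA with Malat1 was lower, Ddx3x-Malat1 (12 and 11 counts in the controls, 2 and 1 with differentiation, adjusted p = 0.111, edgeR).

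The remaining contacts of Ddx39b moved less, and in both directions. Neat1 and Malat1 together gave 21.8% and 24.6% of its counts in the controls and 6.12% and 7.64% with differentiation. Gm26917 and Gm42418 (current symbol Rn18s-rs5), which pair with 56.9% and 63.2% of all listed RNAs, gave 121 and 153 counts against 34 and 80. The Ddx39b-Gm26917 pair (79 and 73 counts, then 16 and 48) had a log2 change of -0.75 (adjusted p = 0.260, edgeR). The Ddx39b-Gm42418 pair (42 and 80, then 18 and 32) had -0.72 (adjusted p = 0.305). Both were lower in both differentiation libraries, and neither passed the test.

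With the pairs of these 4 RNAs left out, the 34 other pairs of Ddx39b held 201 and 191 counts in the controls and 104 and 174 with differentiation. The contact total then changed by -0.37 (adjusted p = 0.298, edgeR) and was no longer called. Without these 4 partners, no difference of Ddx39b passed the test. Among all 17 tested pairs of Ddx39b, those with these 4 RNAs included, 9 had a negative and 8 a positive change. Without overlap of the groups, 8 were lower and 3 higher, and the pairs with these 4 RNAs were all among the 8 lower. Over all between-RNA pairs, 27.4% were lower and 20.4% higher without overlap.

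Of the 38 partners of Ddx39b, 20 were protein-coding and 8 were classed as snRNA or scRNA. The protein-coding partners gave 93 and 98 counts in the controls and 52 and 80 with differentiation. As shares of all Ddx39b counts of each library, these were 22.6% and 21.5%, then 35.4% and 29.1%. The snRNA and scRNA partners gave 53 and 47 counts in the controls and 21 and 35 with differentiation. Their shares were 12.9% and 10.3%, then 14.3% and 12.7%. Rn7sk, the RNA that holds the elongation factor P-TEFb inactive, had 26 and 13 counts against 3 and 7 (-1.43, SE 0.64, adjusted p = 0.217, edgeR). Gm23935, which the gene table did not name, had 21 and 23 against 17 and 36, which is higher in CPM in both differentiation libraries (0.79, SE 0.43, adjusted p = 0.312, edgeR).

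**Figure D3:**
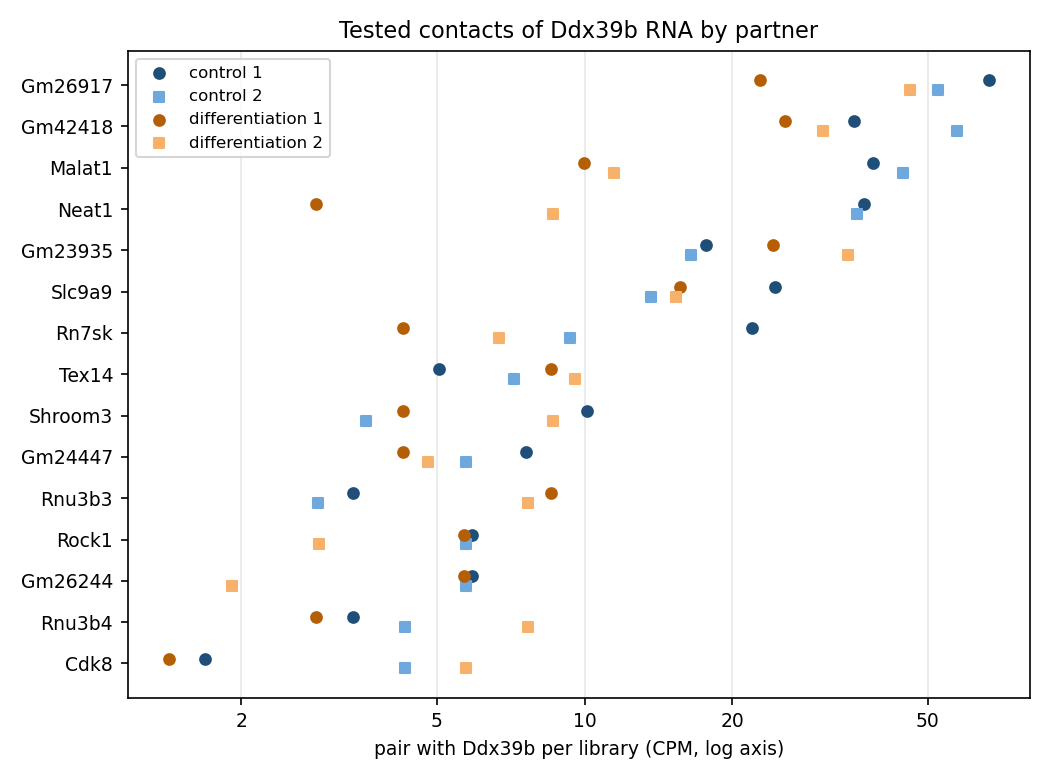
CPM (log axis) of 15 of the 17 tested contacts of Ddx39b RNA, by partner and library, controls in blue and differentiation in orange. The pairs with Malat1 and Neat1 have both differentiation libraries far below the controls (Neat1 5.73 against 36.5 CPM on average), while Gm23935 lies the other way.

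Part of the Ddx39b signal coincided with a small RNA inside the gene. The snoRNA gene Gm25128 lies at chr17:35247175-35247250, within the span of Ddx39b, and was listed with 56 and 77 counts in the controls and 25 and 52 with differentiation (log2 change -0.54, adjusted p = 0.278, edgeR). All 7 of its partners were also partners of Ddx39b, and in every library its count with each partner was no higher than that of Ddx39b. With Neat1, for example, Gm25128 had 18 and 22 counts and then 1 and 5. Whether a read over both genes was entered under both names is not stated in the sources used here. With the counts of Gm25128 taken off, the total of Ddx39b was 356 and 379 counts against 122 and 223. The change was then -0.84 for the total (adjusted p = 0.0102, edgeR) and -2.84 for the pair with Neat1 (adjusted p = 0.0157), so both calls held.

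None of the 16 helicases of ribosome assembly changed its total by the adjusted test, with a median log2 change of -0.17 and 1 unadjusted p under 0.05. That was Ddx31, a nucleolar helicase, with 66 and 93 counts in the controls and 88 and 105 with differentiation (0.58, SE 0.24, adjusted p = 0.139, edgeR). Ddx50, a close relative of the nucleolar helicase Ddx21, had most counts of the group, 109 and 164 in the controls and 65 and 114 with differentiation (-0.34, SE 0.22, adjusted p = 0.352). Ddx21, which works on ribosomal RNA transcription and processing, had 43 and 39 counts against 50 and 48 (0.56, SE 0.33, adjusted p = 0.303). In CPM, Ddx31 and Ddx21 were higher in both differentiation libraries and Ddx50 was lower in both. The extremes of the group rested on few counts: Ddx51 had 5 and 9 against 7 and 13 (0.77, adjusted p = 0.436), and Ddx55 had 11 and 2 against 1 and 6 (-0.68, adjusted p = 0.687).

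Of 12 listed helicases of export, translation and mRNA turnover, 10 were tested and none changed by the adjusted test, with a median of 0.13. Their RNAs had the most counts of all roles. Ddx3x, a helicase of translation initiation encoded on the X chromosome, had 470 and 525 counts in the controls and 316 and 588 with differentiation. In CPM the libraries overlapped, at 272 and 264 against 258 and 317 (log2 change 0.10, SE 0.16, adjusted p = 0.739, edgeR). Its copy on the Y chromosome, Ddx3y, had 75 and 68 counts against 28 and 84 (-0.15, SE 0.33, adjusted p = 0.826). The 2 differentiation libraries of Ddx3y lay on either side of the controls. Ddx3x and Ddx3y are similar in sequence, and reads may be divided between them in a way the counts do not show.

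Dhx9 (RNA helicase A), which unwinds double-stranded RNA in the nucleus, had 392 and 353 counts in the controls and 238 and 466 with differentiation (0.15, SE 0.19, adjusted p = 0.674, edgeR). Ddx6, a helicase of mRNA repression and decay, had 102 and 89 counts against 62 and 83 (-0.13, SE 0.24, adjusted p = 0.795). Both overlapped between groups. Ddx19b, which frees mRNA from proteins at the nuclear pore, had 32 and 42 counts against 48 and 50. It was higher in both differentiation libraries, at 39.1 and 27.0 CPM against 18.5 and 21.2 CPM, but did not pass (0.71, SE 0.32, adjusted p = 0.177, edgeR). Its neighbour Ddx19a overlapped between groups (71 and 92, then 81 and 66 counts). The Ddx19a-Ddx19b pair gave 160 of the 172 counts of Ddx19b over all libraries, and it also entered the 310 counts of Ddx19a. Per kilobase of gene, the mean contact level was highest for Ddx3x (20.6 CPM per kb), then Ddx39b (15.4) and Dhx9 (6.66), and lowest for Ddx26b (0.096).

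Dhx30, which serves ribosomes of the mitochondrion, was the 1 listed helicase of its group. It had 92 and 96 counts in the controls and 99 and 121 with differentiation, higher in CPM in both (0.52, SE 0.22, adjusted p = 0.151, edgeR). The 2 listed helicases of antiviral sensing did not pass either. Ddx60 had 22 and 63 counts against 6 and 33 (-0.89, SE 0.55, adjusted p = 0.328, edgeR), and Ddx58 (RIG-I) had 13 and 14 against 6 and 9 (-0.57, adjusted p = 0.545). All counts of Ddx60 came from its within-RNA pair. Without differentiation 2, its total was called lower (-2.20, adjusted p = 0.00340), so 1 library decided that value. Ddx11, a helicase of sister chromatid cohesion, had 115 and 111 counts against 75 and 117 (0.03, SE 0.21, adjusted p = 0.960).

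Among the helicases of other or little known role, 4 of 5 were tested and none passed. Dhx57 had 210 and 303 counts in the controls and 146 and 224 with differentiation (-0.19, SE 0.18, adjusted p = 0.549, edgeR). Dhx32 had 93 and 168 counts against 121 and 198 (0.57, SE 0.23, adjusted p = 0.140). Ddx26b had 11 and 12 against 5 and 7 (-0.66, adjusted p = 0.504). In CPM of the counts as listed, Dhx32 was higher in both differentiation libraries, and Dhx57 and Ddx26b were lower in both.

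Contacts within single RNAs made up 49.7% and 51.5% of the helicase counts in the controls and 54.5% and 59.7% with differentiation. Over all RNAs these shares were 48.9% and 49.4% against 47.7% and 52.9%. Of the 14 helicase RNAs with a within-RNA pair, 13 had more than 50% of their counts there. Summed over the libraries these pairs held from 54 to 1643 counts, and all 14 were tested. By edgeR 1 was called higher (Dhx32) and none lower, where 15.7% of all within-RNA pairs were called, 12.3% higher and 3.33% lower. At an unadjusted p under 0.05, 5 were higher and 0 lower, and DESeq2 after adjustment also gave 1 higher and 0 lower. The median log2 change was 0.45, close to the 0.44 over all within-RNA pairs. In CPM, 7 of the 14 were higher in both differentiation libraries and none was lower in both. Over all within-RNA pairs, 60.0% did not overlap, 46.0% higher and 14.0% lower.

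The Dhx32 pair had 69 and 114 counts in the controls and 95 and 153 with differentiation. In CPM, both differentiation libraries (135 and 147 CPM) were above both controls (58.2 and 81.8 CPM). The mean went from 70.0 ± 16.7 CPM up to 141 ± 8.14 CPM (log2 change 1.01, SE 0.27, adjusted p = 0.0372, edgeR). The gene of Dhx32 (chr7:133720935-133782785) overlaps Fank1, a testis gene, over 5.95 kb. Fank1 had a within-RNA pair of its own, with 2 and 9 counts in the controls and 28 and 35 with differentiation, and its contact total rose (2.79, SE 0.56, adjusted p = 0.00745, edgeR). Fank1 runs on beyond the shared stretch (chr7:133776836-133881536). Whether any of its reads fell in that stretch, or were also counted for Dhx32, was not tested. With all Fank1 counts taken off regardless of position, the Dhx32 pair changed by 0.66 (adjusted p = 0.190) and was no longer called. The call also ended without control 1 (adjusted p = 0.360), control 2 (0.550) or differentiation 2 (0.0506), with no filter on low counts (0.0615) and with column totals alone (0.0735).

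3 more within-RNA pairs had log2 changes of 0.78 to 1.00 and missed the threshold. Dhx30 had 64 and 62 counts in the controls and 81 and 87 with differentiation (1.00, SE 0.30, adjusted p = 0.0617, edgeR). Ddx31 had 42 and 70 against 62 and 86 (0.98, SE 0.31, adjusted p = 0.0743). Dhx8 had 101 and 136 against 111 and 163 (0.78, SE 0.25, adjusted p = 0.0772). In all 3, both differentiation libraries were above both controls in CPM, so at an adjusted p under 0.1 the count of higher pairs was 4. The Dhx30 pair passed under the default filter (adjusted p = 0.0426), with robust dispersion (0.0492) and without differentiation 2 (0.0111).

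The within-RNA pairs with most counts did not pass. Ddx3x had 391 and 453 counts in the controls against 274 and 525 (0.45, SE 0.21, adjusted p = 0.226, edgeR). Dhx9 had 301 and 258 against 174 and 370 (0.46, SE 0.24, adjusted p = 0.292). Ddx3x was higher in CPM in both differentiation libraries (389 and 503 CPM against 330 and 325 CPM), and Dhx9 overlapped. Without differentiation 1 both were called higher (adjusted p = 0.0220 and 0.0222). Dhx57 (188 and 271, then 133 and 212; 0.15, adjusted p = 0.784), Ddx3y (75 and 68, then 28 and 84; 0.13, adjusted p = 0.887) and Ddx50 (53 and 99, then 32 and 60; -0.16, adjusted p = 0.851) overlapped between groups.

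**Figure D4:**
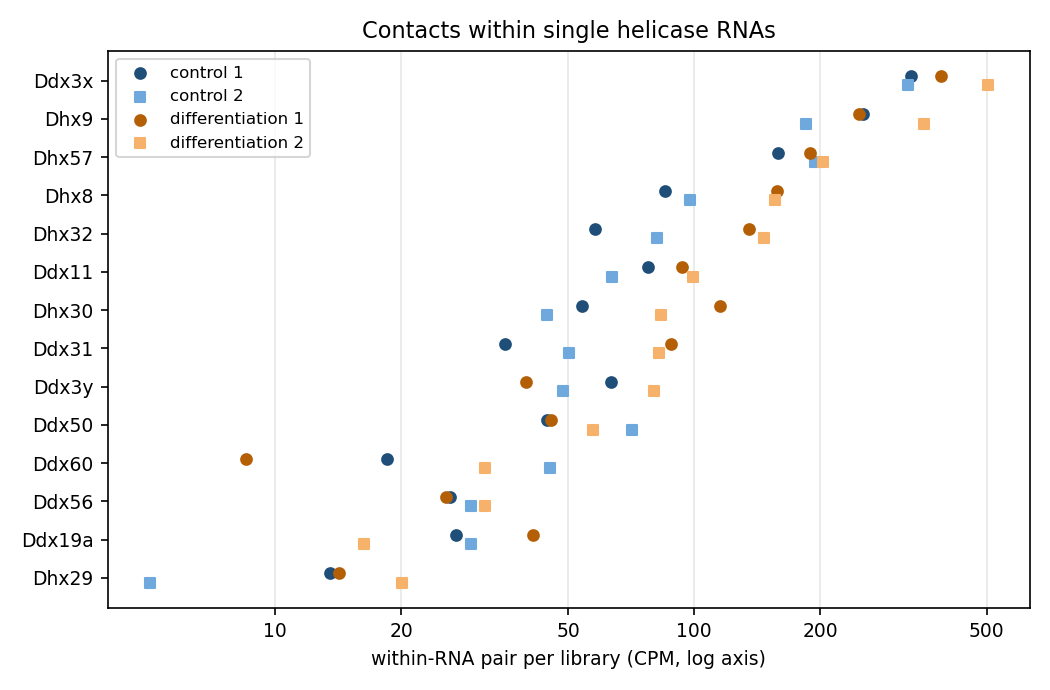
CPM (log axis) of the 14 contacts within single helicase RNAs, 1 point per library, controls in blue and differentiation in orange. Dhx32, Dhx30, Ddx31 and Dhx8 have both differentiation libraries above both controls (Dhx32 141 against 70.0 CPM on average), while Dhx57, Ddx3y and Ddx50 overlap.

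The 202 between-RNA pairs went to 53 partner RNAs, of which 40 were partners of a single helicase RNA. A few partners recurred, and these also recurred across the whole table. Gm42418 paired with 42 of the 47 helicase RNAs (89.4%) and with 63.2% of all RNAs. Gm26917 paired with 33 (70.2%, against 56.9% of all RNAs), and Slc9a9, a sodium-proton exchanger gene, with 33 (70.2%, against 58.8%). Malat1 paired with 6 (12.8%, against 16.4%) and Neat1 with 2 (4.26%, against 8.66%). Gm42418, Gm26917, Neat1 and Malat1 together took 27.8% and 30.8% of the helicase counts in the controls and 23.2% and 20.5% with differentiation, against 29.1% and 33.7%, then 22.3% and 21.9%, over all RNAs. The largest pair of a helicase RNA other than Ddx39b with these 4 was Dhx9-Gm42418, with 25 and 37 counts in the controls and 33 and 44 with differentiation (0.89, SE 0.37, adjusted p = 0.182, edgeR). It was higher in CPM in both differentiation libraries and did not pass.

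Some partners were classed as pseudogenes or lay next to the helicase gene. The 1 pair that joined 2 helicase RNAs was Ddx19a-Ddx19b, whose genes lie 5.36 kb apart on chromosome 8. It had 31 and 41 counts in the controls and 44 and 44 with differentiation, higher in CPM in both (0.89, SE 0.36, adjusted p = 0.169, edgeR). These counts were most of the contact total of Ddx19b, so the pair and that total are not separate results. Ddx18 paired with the pseudogene Gm16433, with 22 and 27 counts against 24 and 41 (0.95, SE 0.40, adjusted p = 0.178). This pair was also higher in CPM in both. Ddx6 paired with Gm13410 (28 and 33, then 23 and 34 counts), Ddx50 with Gm8228 (31 and 26, then 20 and 27) and Ddx3x with Gm19028 (11 and 7, then 5 and 17), all 3 classed as pseudogenes. These 4 pseudogenes had only 1 or 2 listed partners each in the whole table, and whether they are copies of the helicase genes was not tested. Ddx3x also paired with D1Pas1, its testis relative on an autosome, in 3 and 3 and then 3 and 1 counts. Where 2 RNAs are near-identical, reads can be split between them, and a pair of them cannot be told apart from a contact within 1 RNA.

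Of the between-RNA pairs, 17 joined genes on the same chromosome and 3 joined genes within 200 kb. Besides Ddx19a-Ddx19b, these were Dhx9-Npl (15.3 kb apart) and Dhx9-Lamc1 (123 kb apart). Neither of the Dhx9 pairs had enough counts to be tested.

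Other RNA helicases, outside the name rule, were counted for comparison. Of 23 related helicases (listed by name, with earlier results of these data known), 20 were tested, 4 rose and none fell (over all RNAs 5.44% were called higher and 6.75% lower), with a median log2 change of 0.17. DESeq2 also called 4 higher and 0 lower. At an unadjusted p under 0.05 edgeR gave 9, in both directions. Eif4a2 (-0.40), Mov10 (-0.78) and Helz2 (-0.86) were the lower ones, and the others were higher. Ifih1, Supv3l1 and Dqx1 were not listed.

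Of the related helicases called higher, 3 belong to the piRNA pathway. Tdrd9 had 57 and 57 counts against 141 and 298 (2.17, SE 0.23, adjusted p = 1.78e-04, edgeR). Tdrd12 had 18 and 21 against 53 and 88 (2.11, SE 0.31, adjusted p = 0.00132). Mov10l1 had 75 and 77 against 117 and 220 (1.39, SE 0.21, adjusted p = 0.00162). All 3 were well above the controls in both differentiation libraries. Tdrd9 and Mov10l1 are also in the list of germ cell markers, of which 3 of 6 tested rose. These 3 calls ended when either control was left out, where none of all RNAs passed edgeR, with adjusted p between 0.169 and 0.328.

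Among 27 helicase cofactors (proteins with a G-patch or MIF4G domain, which can bind helicases), 24 were tested, 1 rose and 2 fell. Their median log2 change was -0.15. Over all RNAs 12.2% were called, 5.44% higher and 6.75% lower, so the share of cofactors called was near that of all RNAs. Eif4g3, a scaffold of translation initiation, had 872 and 1004 counts in the controls and 420 and 613 with differentiation (-0.59, SE 0.15, adjusted p = 0.0233, edgeR). Ctif, which takes part in translation of mRNA bound by the nuclear cap-binding complex, had 260 and 363 counts against 136 and 119 (-0.95, SE 0.24, adjusted p = 0.0259). For each, both differentiation libraries were below both controls in CPM. Gpatch11 was called higher (adjusted p = 0.0394) on 3 counts in the controls and 18 with differentiation, a ratio scaled to library size of 7.24 with an exact 95% interval from 2.11 to 38.4. The falls of Ctif and Eif4g3 were not called with column totals alone (adjusted p = 0.0555 and 0.112) or without the pairs of Gm42418, Gm26917, Neat1 and Malat1 (0.0774 and 0.0859).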

How the data were processed

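RIC-seq libraries of mouse spermatogonial stem cells (2 control, 2 differentiation) were analysed from the deposited table of the authors, which held raw whole-number counts of chimeric reads per pair of RNAs. STAR and the build GRCm38 were named, without versions or roles, per the submitters' processing notes. How chimeric reads were called, duplicates removed and reads over overlapping genes assigned is not given in the sources used here. Total counts ranged from 793129 to 1400011 per library.

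Counts were tested with edgeR 4.0.16 in R 4.3.3 (quasi-likelihood F test, TMM scaling, filterByExpr with minimum count 5 and minimum total 10, two-sided) over all RNAs or all pairs, with Benjamini-Hochberg adjustment and a threshold of 0.05. A within-RNA pair entered the contact total once. CPM were computed by edgeR, and the fit was checked on simulated counts. Alternatives were DESeq2 1.42.0, scaling by RLE or by column totals alone, testing without a filter or with default minimums (count 10, total 15), a block for replicate number, robust dispersion, an adjusted p under 0.1 and each library left out. For totals, between-RNA pairs only, leaving out pairs of Gm42418, Gm26917, Neat1 and Malat1 and keeping 1 of each set of identical pairs were added. These 4 were not the most widely pairing RNAs: Slc9a9 (58.8% of all RNAs) was kept, while Malat1 paired with 16.4% and Neat1 with 8.66%. Taking off the counts of overlapping genes was chosen after seeing the data.

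The helicases and lists were chosen with earlier results of these data known. Named were the called helicase RNAs and pairs, the 8 with most counts, in each role the largest mean level and the largest rise and fall, up to 3 pairs of each (summed count at least 50), pairs of 2 members and up to 6 called related genes per list. Others, such as Dhx15, Dhx8, Ddx21, Ddx6, Rn7sk, Gm25128, Fank1 and the pseudogene pairs, were chosen after their values were seen. Genes were placed with the GRCm38.p6 gene table. A contact total depends on how much of the RNA there is and on its contacts. With 2 libraries per group, an exact permutation test cannot go below p = 0.333, so none was run. A few results are not reported here.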

Additional observations from a re-analysis of the deposited data

How the results depend on the processing

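Over 40 named results (15 helicase totals, 19 pairs and 6 related genes), 475 of 534 alternative values kept their direction and side of the threshold, 30 lost a call, 9 gained one and 20 changed sign, the sign changes all among results that were not called. RLE scaling, DESeq2 and keeping 1 of each set of identical pairs changed no count of helicase calls. Column totals alone moved all log2 changes of totals by 0.16 and of pairs by -0.14. Called helicase totals lower numbered 1, but 0 with column totals or without the pairs of the 4 RNAs Gm42418, Gm26917, Neat1 and Malat1. Called totals higher numbered 0, and 0 to 1 with 1 library left out. Within-RNA pairs called higher numbered 1, but 4 at an adjusted p under 0.1, 3 under the default filter, 2 with robust dispersion, 0 with column totals, 0 with no filter, 0 with overlapping counts taken off and 0 to 3 with 1 library left out. Between-RNA pairs called lower numbered 2, and 0 to 2 with 1 library left out, and 1 was called higher at an adjusted p under 0.1. Of related helicases, 0 to 6 were called higher and 0 to 2 lower with 1 library left out. Of cofactors, these ranges were 0 to 1 and 0 to 2. The 1 higher cofactor was lost under the default filter (0), which did not test it, and without the 4 RNAs (0), and DESeq2 gave it no adjusted p. The 2 lower cofactors were lost with column totals (0) and without the 4 RNAs (0). Beyond the smaller number of libraries, the causes were not tested. Without either control, calls on contact totals fell to 0 over all RNAs. Calls on pairs fell from 1662 to 1151 without control 1 and to 0 without control 2.

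Replicate numbers were not shown to pair the libraries. Across the tested RNAs, the deviations of control 1 and of differentiation 1 from their group means correlated at 0.14. With 2 libraries per group, the deviations of control 2 and differentiation 2 are the negatives of these and add no evidence. With replicate number as a block, Ddx39b changed by -0.80 (adjusted p = 9.27e-04), and 2 within-RNA pairs were called higher, Dhx32 and Dhx30. The calls over all RNAs went from 1340 to 1919.

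Values that changed sign were small or uncalled. The Ddx11 total was -0.0058 with no filter and -0.59 over between-RNA pairs only, the Ddx3x total -0.091 over between-RNA pairs only, and with column totals the Ddx3y total was 0.021 and the Ddx3y pair -0.0039. With 1 library left out, totals ranged from -0.11 to 0.15 for Ddx11, -0.065 to 0.28 for Ddx3x, -0.77 to 0.27 for Ddx3y and -0.065 to 0.35 for Dhx9. Within-RNA pairs ranged from -0.46 to 0.56 for Ddx3y, -0.49 to 0.20 for Ddx50, -1.88 to 0.16 for Ddx60 and -0.023 to 0.30 for Dhx57, and Ddx3x-Gm42418 from -0.32 to 0.69. Over all its alternatives the adjusted p of the Ddx39b total ran from 3.65e-05 to 0.365. Of the 47 helicase RNAs, 3 were too shallow to test and 14 had fewer than 50 counts.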
